A study of Mus musculus with 9 samples.

Results

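The costimulatory and checkpoint receptors described here are 10 genes, found by symbol among the 21883 genes of the deposited expression table: *Cd28*, *Icos*, *Ctla4*, *Pdcd1*, *Lag3*, *Cd160*, *Btla*, *Cd5*, *Cd6* and *Cd96*. Each symbol matched 1 row, and all 10 rows were tested in each comparison as reported. They were measured by RNA-seq in invariant natural killer T (iNKT) cells sorted from the mouse thymus, in 9 libraries, 3 per group. WT stage 2 (CD44hi NK1.1lo) and WT stage 3 (CD44hi NK1.1hi) cells came from C57BL/6 mice 6 weeks old. *Med23*-deficient stage 2 cells came from mice with floxed *Med23* alleles and a *Cd4-Cre* transgene, which deletes the gene by the CD4+CD8+ double-positive thymocyte stage in all cells that express *Cd4*, so not in iNKT cells alone. *Med23* encodes a subunit of Mediator, the complex that links transcription factors to RNA polymerase. The age of the *Med23*-deficient mice was not given in the labels, nor whether libraries of a group came from separate mice, so the tests measure the spread between libraries.

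iNKT cells are T cells with an invariant T cell receptor (TCR) that recognizes lipids on CD1d. They mature in the thymus from an IL-4-producing, NK1.1-negative stage to an NK1.1-positive stage with features of natural killer (NK) cells. A TCR signal alone does not set how a T cell responds: CD28 and ICOS add activating signals, while CTLA-4, PD-1 (from *Pdcd1*), BTLA and LAG-3 restrain them. CD5 and CD6, scavenger receptor family members on T cells, tune the TCR signal from within the contact with the presenting cell. CD160 and BTLA share a ligand, HVEM, and CD96 competes with TIGIT and CD226 for the poliovirus receptor PVR.

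Values are FPKM, which divides the fragments of a gene by the length of its transcripts and by the size of the library. They hold no counts, so sequencing depth is unknown. Between 15584 and 17333 genes lay above 0 per library. The short gene model *Gm23935* took 62.2% to 71.9% of the summed FPKM. *Med23* itself was at 5.51, 5.15 and 6.74 FPKM in WT stage 2, 7.14, 4.44 and 6.12 in WT stage 3, and 4.80, 3.6 and 3.92 in *Med23*-deficient cells, which lay below WT stage 2 without passing the test (log2 difference -0.41, adjusted p = 0.552). This gene-level value is not restricted to the deleted part. The marker of stage, *Klrb1c* (NK1.1), ran from 7.65 to 26.2 in WT stage 2, from 57.3 to 95.1 in WT stage 3 and from 2.61 to 4.6 in *Med23*-deficient cells, and *Cd44* ran from 33.7 to 49.1 over all libraries. Among lists for other cells, the summed FPKM of 8 double-positive thymocyte markers was 3.68 to 9.55, and B cell and myeloid lists stayed at or under 2.33. A list of 6 regulatory T cell markers summed to 70.5 to 91.7 in WT stage 2, 30.6 to 62.1 in WT stage 3 and 58.6 to 82.6 in *Med23*-deficient cells, mostly through *Izumo1r* (22.1 to 81.6 over all libraries). Of its other genes *Ikzf2* was at 5.52 to 15.7, *Gpr83* at or under 0.41, and *Foxp3* at 0 in 8 of 9 libraries. *Il2ra* was at 0.95 to 1.5, 0.42 to 0.84 and 3.4 to 6.57 in the 3 groups and *Ikzf4* at 0 to 0.73, 0 and 1.85 to 2.29, both higher without overlap in *Med23*-deficient cells. Of 5 NK cell markers, the 4 tabulated summed to 1.48 to 2.54, 12.97 to 20.2 and 4.01 to 4.92 in the same order, with *Eomes* at 0 in 8 of 9 libraries. Of 8 gamma delta T cell markers, 7 tabulated genes summed to 427 to 489 in WT stage 2, 396 to 488 in WT stage 3 and 10.1 to 10.8 in *Med23*-deficient cells, through TCR gamma genes, with *Trdc*, the TCR delta constant gene, at or under 0.38 throughout. The part of such cells in the results below was not tested. In bulk RNA, fewer cells of a kind and less RNA per cell cannot be told apart.

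In WT stage 2 cells *Icos* was the most abundant of the 10 transcripts per length, at 137 ± 5.04 FPKM (SD, n = 3), which put it between ranks 180 and 224 of all genes in the 3 libraries. *Cd5* followed at 89.0 ± 15.7, then *Cd6* at 47.6 ± 4.71, *Cd28* at 41.0 ± 6.76, *Pdcd1* at 31.6 ± 1.56 and *Cd96* at 26.9 ± 2.27. In this order the ranges of *Cd6* and *Cd28* overlapped and those of the other neighbours did not. *Btla* was at 14.9 ± 3.31 and *Cd160* at 6.56 ± 0.571, while *Ctla4* and *Lag3* were close to 0. In WT stage 3 the order was different: *Cd5* at 40.7 ± 5.44, *Icos* at 33.6 ± 4.05, *Cd6* at 32.9 ± 3.38 and *Cd96* at 30.6 ± 2.41 had overlapping ranges between neighbours, with *Cd28* at 24.8 ± 1.26 and *Cd160* at 20.3 ± 2.60 below them and *Pdcd1* and *Btla* last among the clearly expressed genes. *Med23*-deficient stage 2 cells had *Cd5* at 95.8 ± 19.1 and *Icos* at 90.6 ± 8.0, with overlapping ranges, at the top, then *Cd6* at 56.2 ± 0.087, *Cd28* at 45.3 ± 6.04, *Btla* at 23.2 ± 2.51 and *Cd96* at 21.5 ± 3.01. Here *Pdcd1*, at 15.5 ± 1.39, lay below *Btla*, as it did in WT stage 3 replicates 1 and 3. In WT stage 3 replicate 2 and in every WT stage 2 library it lay above *Btla*.

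**Figure D1:**
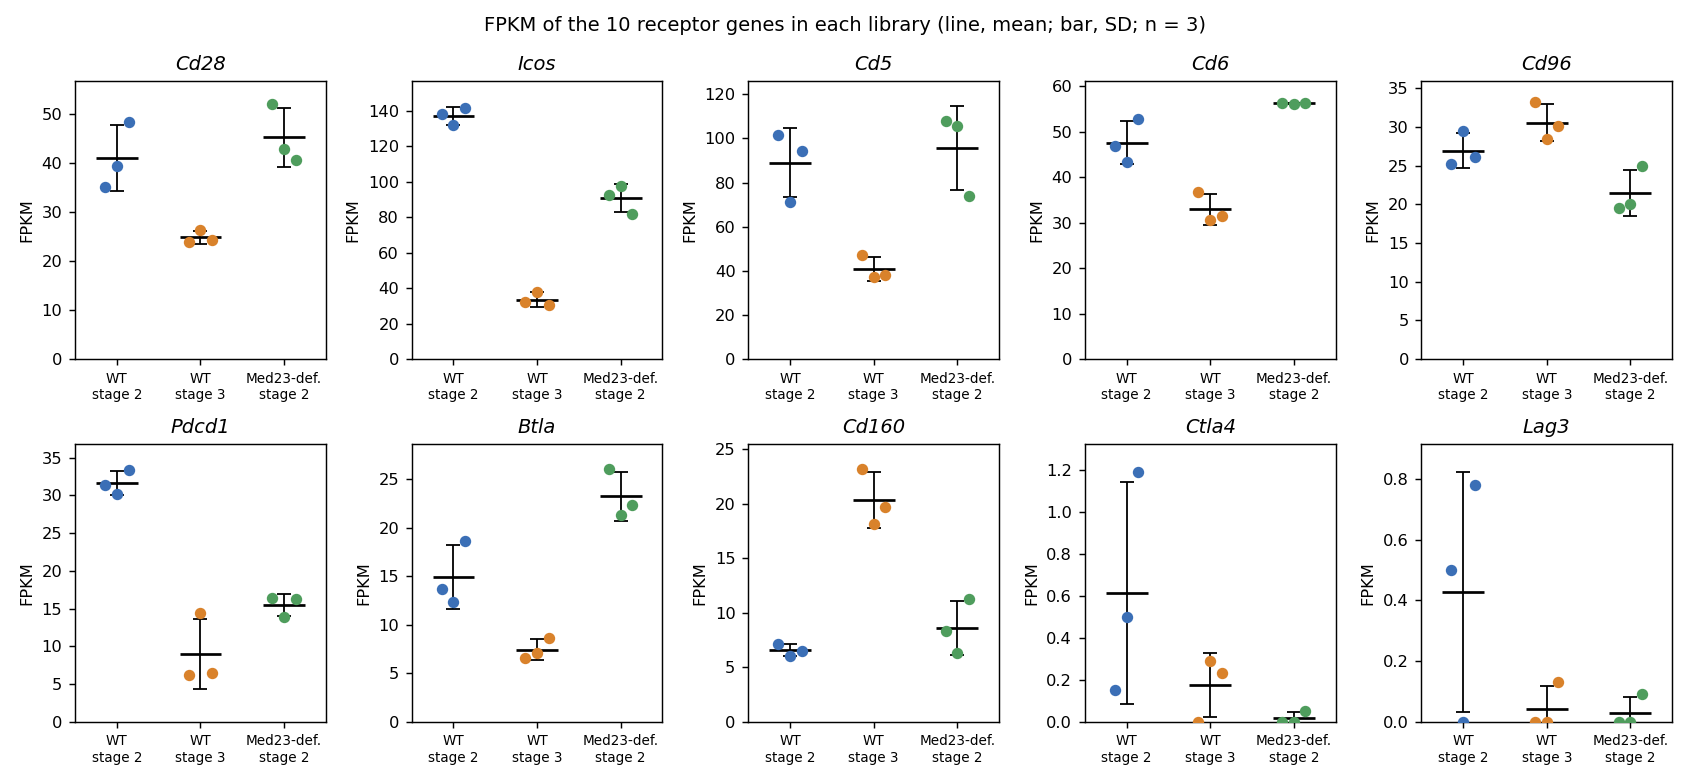
FPKM of the 10 receptor genes in each library (points), with the group mean (line) and SD (bar) of 3 libraries. *Icos*, *Pdcd1*, *Btla*, *Cd5*, *Cd6* and *Cd28* were lower in every WT stage 3 library than in every WT stage 2 library, and *Cd160* was higher; *Ctla4* and *Lag3* are drawn on axes that end near 1.

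The promoters of *Pdcd1*, *Cd5*, *Btla* and *Cd160* are shown because these genes passed the test in at least 1 comparison and had a promoter window. They were taken from RefSeq for GRCm38.p6 (the same assembly as mm10) as the 250 bases before the start site, written 5′ to 3′ on the strand of the gene. RefSeq windows were matched for 6 of 10 members. Capitals mark the core motif of the TCR-activated factor NFAT, GGAAA, or the T-box motif GGTGTGA on either strand, so that TTTCC is an NFAT core read from the other strand. The searched motifs did not overlap in these windows.
Pdcd1, chr1:94052554-94052803, minus strand: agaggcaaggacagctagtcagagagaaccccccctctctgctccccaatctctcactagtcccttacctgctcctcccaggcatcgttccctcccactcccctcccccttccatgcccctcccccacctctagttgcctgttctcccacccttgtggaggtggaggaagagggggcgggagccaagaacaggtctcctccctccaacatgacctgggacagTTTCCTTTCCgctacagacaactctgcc
Cd5, chr19:10738975-10739224, minus strand: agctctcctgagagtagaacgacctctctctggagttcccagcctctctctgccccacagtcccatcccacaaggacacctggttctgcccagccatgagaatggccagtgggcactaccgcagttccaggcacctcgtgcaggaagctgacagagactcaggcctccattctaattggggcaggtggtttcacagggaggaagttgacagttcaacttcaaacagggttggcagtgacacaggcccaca
Btla, chr16:45224087-45224336, plus strand: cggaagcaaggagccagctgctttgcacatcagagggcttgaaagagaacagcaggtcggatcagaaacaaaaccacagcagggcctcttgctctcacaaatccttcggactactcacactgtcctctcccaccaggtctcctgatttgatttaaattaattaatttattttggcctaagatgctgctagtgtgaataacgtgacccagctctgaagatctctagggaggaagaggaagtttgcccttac
Cd160, upstream start, chr3:96829352-96829601, minus strand: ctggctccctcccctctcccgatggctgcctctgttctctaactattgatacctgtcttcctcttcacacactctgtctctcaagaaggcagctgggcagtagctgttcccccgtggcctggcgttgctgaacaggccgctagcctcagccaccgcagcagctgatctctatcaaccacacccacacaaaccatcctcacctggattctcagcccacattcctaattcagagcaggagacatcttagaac
Cd160, downstream start, chr3:96814522-96814771, minus strand: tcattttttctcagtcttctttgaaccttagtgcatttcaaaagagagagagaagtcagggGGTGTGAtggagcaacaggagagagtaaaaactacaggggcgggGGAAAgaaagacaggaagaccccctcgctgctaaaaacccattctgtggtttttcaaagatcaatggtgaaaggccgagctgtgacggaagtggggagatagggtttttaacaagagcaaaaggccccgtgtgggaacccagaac
The *Pdcd1* window held 2 adjacent NFAT cores close to the start, and the window of the downstream *Cd160* start held 1 NFAT core and 1 T-box motif. The windows of *Cd5*, *Btla* and the upstream *Cd160* start held none of these letters. Over 32851 RefSeq windows of the same length, 55.6% held an NFAT core and 3.33% a T-box motif. Neither AP-1 (TGANTCA, in 6.75% of windows) nor FOXO (TGTTTAC, in 3.17%) occurred in the windows of the members. Such matches describe the letters only and are not binding sites.

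Among the activating receptors, *Icos* (ENSMUSG00000026009, chr1:60977927-61000320 in mm10, plus strand) was read at 138.29, 131.71 and 141.62 FPKM in WT stage 2, at 32.34, 38.07 and 30.25 in WT stage 3 and at 92.55, 97.50 and 81.85 in *Med23*-deficient cells. The 3 groups did not overlap, and the *Med23*-deficient libraries lay between the WT stages. *Icos* fell from WT stage 2 to stage 3 by 2.01 (SE 0.10) on the log2(FPKM + 1) scale, or 4.09-fold by the means (adjusted p = 0.00368, limma), and it stayed past the threshold whichever library was left out (adjusted p 0.0181 to 0.0312). The difference of *Med23*-deficient from WT stage 2 cells was -0.60 (SE 0.091, 95% interval -0.82 to -0.37), which missed the threshold (adjusted p = 0.0881). Against WT stage 3, *Icos* was higher in *Med23*-deficient cells by 1.41 (SE 0.12, adjusted p = 0.00844), again whichever library was left out (0.0278 to 0.0458).

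*Cd28* (ENSMUSG00000026012, chr1:60716800-60773359, plus strand), the founding costimulatory receptor, which binds CD80 and CD86, varied less. It was at 35.19, 39.46 and 48.44 FPKM in WT stage 2, 23.94, 26.27 and 24.28 in WT stage 3 and 52.11, 42.92 and 40.72 in *Med23*-deficient cells. Stage 3 was lowest without overlap, while the stage 2 groups overlapped. The difference of WT stage 3 from stage 2 was -0.69 (SE 0.13, adjusted p = 0.0740). *Cd28* was higher in *Med23*-deficient than in WT stage 3 cells by 0.83 (SE 0.11, adjusted p = 0.0326), a call lost without any 1 of the 6 libraries (0.0575 to 0.128). *Med23*-deficient and WT stage 2 cells differed by 0.14, with an interval from -0.23 to 0.51.

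*Ctla4* (chr1:60887000-60915832, plus strand) encodes the inhibitory receptor that competes with CD28 for its ligands. It was at 0.15, 0.50 and 1.19 FPKM in WT stage 2, 0, 0.29 and 0.23 in WT stage 3 and 0, 0 and 0.05 in *Med23*-deficient cells. All *Med23*-deficient libraries were below all WT stage 2 libraries, but the difference did not pass the test (adjusted p = 0.468). The pseudogene *Rpl18-ps1* lies within an intron of the *Ctla4* gene model on the same strand, shares no exonic base with it and was at 3.40 to 8.09 FPKM. *Cd28*, *Ctla4* and *Icos* lie in this order on chromosome 1, with 114 kb between *Cd28* and *Ctla4* and 62.1 kb between *Ctla4* and *Icos*. In the WT stage 2 libraries these 3 members of 1 cluster spanned FPKM from close to 0 to above 100.

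The non-coding gene model *Gm37039* (chr1:60989479-60991963), 2485 bases inside an *Icos* intron on the same strand with no shared exonic base, gave a second reading within the locus. It was at 15.79, 27.82 and 25.39 FPKM in WT stage 2, 8.23, 10.58 and 7.71 in WT stage 3 and 19.18, 15.53 and 23.57 in *Med23*-deficient cells. Stage 3 was below both stage 2 groups without overlap, as for *Icos*, and the stage 2 groups overlapped, unlike for *Icos*. None of its differences passed the threshold (WT stage 3 from stage 2 -1.26, adjusted p = 0.0728; *Med23*-deficient from WT stage 2 -0.21, adjusted p = 0.774; *Med23*-deficient from WT stage 3 1.05, adjusted p = 0.0809), though the first did without WT stage 2 replicate 1 (adjusted p = 0.0489). The libraries hold total RNA, so unspliced *Icos* RNA could be read there; its part was not tested.

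Of the inhibitory receptors, *Pdcd1* (ENSMUSG00000026285, chr1:94038305-94052553, minus strand), which encodes PD-1, the receptor for PD-L1 and PD-L2, was at 31.42, 30.21 and 33.30 FPKM in WT stage 2. WT stage 3 libraries held 6.22, 14.39 and 6.44, and *Med23*-deficient libraries 16.34, 13.86 and 16.20. Both latter groups were below WT stage 2 without overlap, and they overlapped each other through the single library at 14.39, WT stage 3 replicate 2. That library also had the lowest *Klrb1c* (57.3) and the highest *Icos* (38.07) of its group. Other members lower in stage 3 went both ways: *Cd28* (26.27) was highest, *Cd5* (37.19) and *Cd6* (30.51) lowest and *Btla* (7.08) between. *Cd160* (18.12), higher in stage 3, was lowest, while *Klre1* (14.05) and *Cd244* (4.88), also higher in stage 3, were highest. The part of these in the *Pdcd1* value was not tested. *Pdcd1* fell in *Med23*-deficient against WT stage 2 cells by 0.99 (SE 0.10, adjusted p = 0.0367), a 2.05-fold difference of the means. With any 1 of the 6 libraries left out the difference stayed between -1.03 and -0.92, and the adjusted p was 0.0993 to 0.136. From WT stage 2 to stage 3 the difference was larger but more variable, at -1.80 (SE 0.30, adjusted p = 0.0556), and it passed without WT stage 3 replicate 2 (-2.15, adjusted p = 0.0274). *Med23*-deficient and WT stage 3 cells differed by 0.81 (SE 0.31, adjusted p = 0.445), or 1.16 without that library (adjusted p = 0.0611).

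*Btla* (ENSMUSG00000052013, chr16:45224315-45252895, plus strand) encodes an inhibitory receptor with tyrosine-based motifs in its tail. It was at 13.69, 12.35 and 18.64 FPKM in WT stage 2, 6.56, 7.08 and 8.63 in WT stage 3 and 26.05, 21.26 and 22.35 in *Med23*-deficient cells. The groups did not overlap and *Med23*-deficient cells were highest, so *Btla* lay outside the span of the WT stages. *Btla* was higher in *Med23*-deficient than in WT stage 3 cells by 1.53 (SE 0.14, adjusted p = 0.0101), or 0.0566 without WT stage 3 replicate 2. The differences within the other pairs missed the threshold, at -0.90 (SE 0.19, adjusted p = 0.0904) for WT stage 3 from stage 2 and 0.62 (SE 0.17, adjusted p = 0.299) for *Med23*-deficient from WT stage 2.

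*Cd160* (ENSMUSG00000038304, chr3:96798763-96829351, minus strand), the other HVEM receptor, is known from NK cells and cytotoxic T cells and is held in the membrane by a lipid anchor. Its values were 7.17, 6.04 and 6.46 FPKM in WT stage 2, 23.20, 18.12 and 19.71 in WT stage 3 and 8.34, 6.27 and 11.23 in *Med23*-deficient cells. Stage 3 was above every other library, and the stage 2 groups overlapped. *Cd160* rose from WT stage 2 to stage 3 by 1.49 (SE 0.13, adjusted p = 0.0122), or 3.10-fold by the means. The adjusted p was 0.0598 on omitting WT stage 2 replicate 3, and 0.0515 or 0.0697 on omitting replicate 2 or 3 of WT stage 3. *Med23*-deficient cells differed from WT stage 3 by -1.18 (SE 0.21, adjusted p = 0.0805) and from WT stage 2 by 0.32 (SE 0.22, adjusted p = 0.731, interval -0.21 to 0.84). The NK cell list given above was also highest in WT stage 3. Of its 4 tabulated genes, *Klre1* was at 9.83, 14.05 and 8.47 there against 0, 0 and 0.58 in WT stage 2 (adjusted p = 0.0139), *Klra8* at 2.06, 2.92 and 1.95 against 1.07, 0 and 0, *Itga2* at 1.08, 3.25 and 2.57 against 1.23, 1.5 and 0.90, and *Eomes* at 0 in all 3. In *Med23*-deficient cells *Itga2* was at 4.22, 4.01 and 4.92, above every WT library, while *Klre1*, *Klra8* and *Eomes* were at 0 in every library. The part of NK cells in the *Cd160* values was not tested.

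*Lag3* (chr6:124904361-124911705, minus strand), which encodes an inhibitory receptor for MHC class II, was at 0.50, 0 and 0.78 FPKM in WT stage 2, 0, 0 and 0.13 in WT stage 3 and 0, 0 and 0.09 in *Med23*-deficient cells. These levels are too low to rank the groups, and no difference passed the test (lowest adjusted p = 0.489). *Cd96* (chr16:46035657-46120251, minus strand), the PVR receptor, was at 25.19, 29.50 and 26.13 in WT stage 2, 33.18, 28.42 and 30.12 in WT stage 3 and 19.48, 20.02 and 24.94 in *Med23*-deficient cells. *Med23*-deficient cells were lowest without overlap with either WT group, and the WT groups overlapped. The differences were small and missed the threshold, at 0.18 (SE 0.10, adjusted p = 0.541) for WT stage 3 from stage 2, -0.32 (SE 0.13, adjusted p = 0.498) for *Med23*-deficient from WT stage 2 and -0.50 (adjusted p = 0.187) from WT stage 3.

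*Cd5* (ENSMUSG00000024669, chr19:10718143-10738974, minus strand) encodes an inhibitor of TCR signalling whose surface level in thymocytes is widely read as a gauge of that signal. It was at 101.40, 71.31 and 94.37 FPKM in WT stage 2, 47.00, 37.19 and 38.01 in WT stage 3 and 107.89, 105.68 and 73.77 in *Med23*-deficient cells. Stage 3 was lowest without overlap and the stage 2 groups overlapped. *Cd5* fell from WT stage 2 to stage 3 by 1.10 (SE 0.16, adjusted p = 0.0420). The adjusted p was 0.118 or 0.129 on omitting replicate 1 or 3 of WT stage 2, and 0.0820, 0.131 and 0.140 without WT stage 3 replicates 1, 2 and 3. In *Med23*-deficient cells *Cd5* was higher than in WT stage 3 by 1.2 (SE 0.18, adjusted p = 0.0430), a call that held without *Med23*-deficient replicate 3 (0.0294) and was lost without each other library (up to 0.160). Between the stage 2 groups the difference was 0.10 with an interval from -0.39 to 0.58, and its sign turned on the TPM scale (-0.030).

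*Cd6* (ENSMUSG00000024670, chr19:10789341-10830058, minus strand), the paralog of *Cd5* that binds ALCAM, lies 50.4 kb from it. Its values were 46.80, 43.34 and 52.66 FPKM in WT stage 2, 36.78, 30.51 and 31.44 in WT stage 3 and 56.27, 56.13 and 56.29 in *Med23*-deficient cells. The 3 groups did not overlap, with stage 3 lowest and *Med23*-deficient cells highest. *Cd6* was higher in *Med23*-deficient than in WT stage 3 cells by 0.76 (SE 0.091, adjusted p = 0.0228), a call that held without WT stage 3 replicate 1 (0.0366) and was lost without each other library (0.0708 to 0.0970). WT stage 3 differed from stage 2 by -0.52 (SE 0.11, adjusted p = 0.106), and *Med23*-deficient from WT stage 2 by 0.24 (SE 0.091, adjusted p = 0.477).

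The comparison of WT stage 3 with WT stage 2 asked how the last maturation step changes these receptors. *Icos* and *Cd5* fell and *Cd160* rose, so 3 of 10 members passed an adjusted p of 0.05, where 1.67% of the 20689 genes tested did (0.759% higher, 0.914% lower). By the thresholds of the study, a 2-fold change and an unadjusted p of 0.05, *Pdcd1* was added and 4 of 10 passed, where 3.6% of genes did (1.7% higher, 1.9% lower). Between the stages 7 of 10 members did not overlap, 6 of them lower in stage 3 and *Cd160* higher, where 17.8% of genes did not overlap in either direction (7.36% higher, 10.4% lower). The median difference of the 10 genes was -0.61 on the log2 scale and that of all genes tested was -0.014. Over the alternatives the first ran from -1.06 with a pseudocount of 0.01 to -0.47 with the linear model after Ballgown. The summed FPKM of the 10 genes was 396 ± 29.8 in WT stage 2 and 199.6 ± 10.01 in WT stage 3, and the share of *Icos* in it was 34.7% ± 1.36 and 16.8% ± 1.91, while that of *Cd160* was 1.66% ± 0.134 and 10.2% ± 1.04. A linear model after Ballgown, the tool of the study, called none of the 10 by adjusted p, with 5 genes called in all. Over 18 alternatives, left-out libraries included, *Icos* was called in 17, *Cd160* in 13 and *Cd5* in 6.

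**Figure D2:**
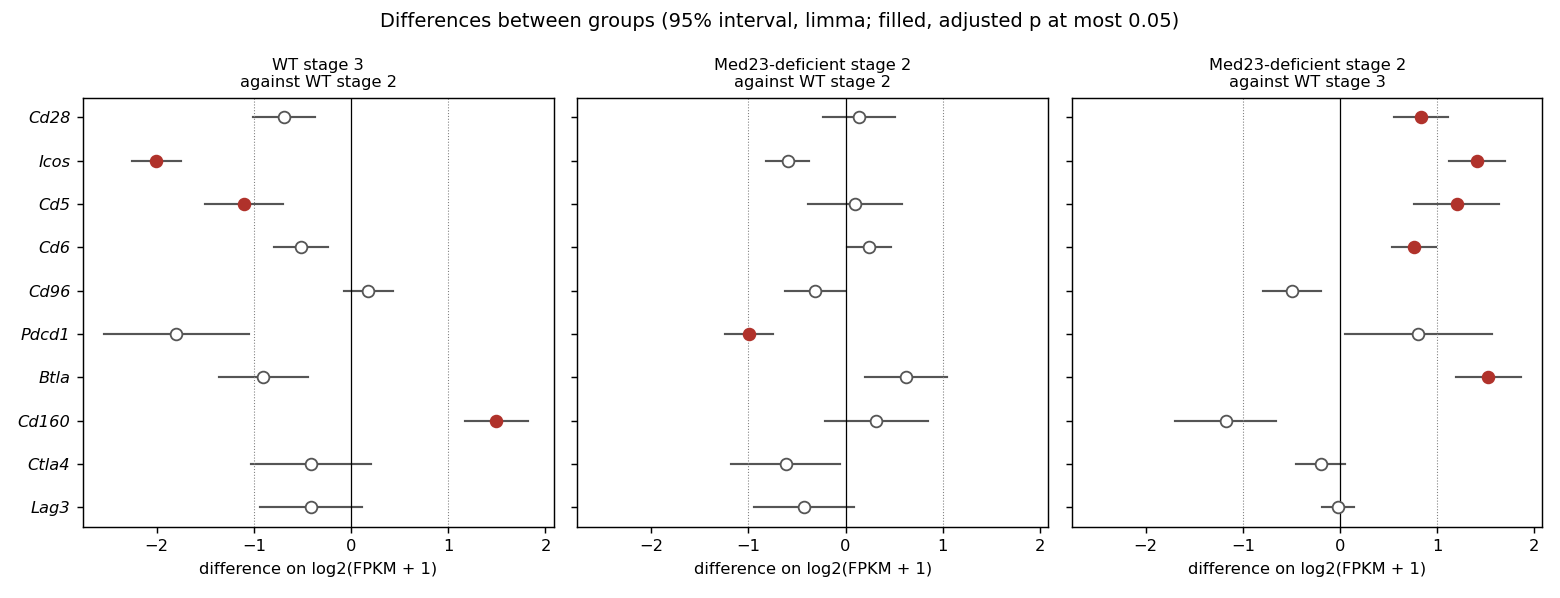
Difference between groups of each receptor gene on the log2(FPKM + 1) scale, with the 95% interval from limma, in the 3 comparisons; filled points have an adjusted p of at most 0.05, and dotted lines mark a 2-fold difference. *Icos*, *Cd5* and *Cd160* are filled for WT stage 3 against stage 2, *Pdcd1* alone for *Med23*-deficient against WT stage 2, and *Icos*, *Btla*, *Cd5*, *Cd28* and *Cd6* for *Med23*-deficient against WT stage 3.

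The comparison of *Med23*-deficient with WT stage 2 cells set the genotypes side by side within the stage 2 sort. *Klrb1c* did not overlap between these groups (2.61 to 4.6 against 7.65 to 26.2 FPKM), and the age of the *Med23*-deficient mice is not known. Genotype therefore cannot be told apart here from age, from separate handling of the libraries or from the make-up of the sorted cells. *Pdcd1* was the 1 member of 10 past an adjusted p of 0.05, lower in *Med23*-deficient cells, where 0.213% of 20674 genes passed (0.145% lower). By fold and p no member was called and 2.11% of genes were, since the fitted *Pdcd1* difference was 1.99-fold. *Icos*, *Pdcd1*, *Ctla4* and *Cd96* were lower without overlap and *Btla* and *Cd6* higher, 6 of 10 members where 14% of genes did not overlap (5.63% higher, 8.37% lower). The median difference of the members was -0.11, and that of all genes tested was -0.014. The sign of the first turned to 0.12 with a mean FPKM of at least 1, where 8 members without *Ctla4* and *Lag3* were tested, and it was -0.0065 with a common upper quartile. The summed FPKM of the 10 genes was 357 ± 26.5 in *Med23*-deficient cells, of which *Icos* made up 25.4% ± 1.25 and *Cd160* 2.45% ± 0.880. The *Pdcd1* call was also lost on the TPM scale (adjusted p = 0.0611, or 0.0638 without *Gm23935*), with a common upper quartile (0.0671), with all 9 libraries in the fit (0.198) and with the linear model after Ballgown (0.392).

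*Med23*-deficient stage 2 cells were also set against WT stage 3, in a fit of these 6 libraries without WT stage 2. Each group also entered a comparison above, and the difference here is that between the effects of those comparisons. *Icos*, *Btla*, *Cd5*, *Cd28* and *Cd6* were higher in *Med23*-deficient cells, 5 of 10 by adjusted p where 1.33% of 20846 genes were called and 0.705% were called higher. By fold and p *Icos*, *Btla* and *Cd5* were higher and *Cd160* lower, 4 of 10 where 2.86% of genes were called (1.39% higher, 1.48% lower). In 7 of 10 the groups did not overlap, 5 higher and 2 lower (*Cd160* and *Cd96*), where 14.2% of genes did not (7.48% higher, 6.75% lower). The median difference was 0.78 for the members and 0.0035 for all genes tested. The linear model after Ballgown called none of the 10 here, with 18 genes called in all. Over the alternatives *Icos* was called in 17, *Btla* in 15, *Cd6* in 10, *Cd28* in 9 and *Cd5* in 7.

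Ratios within a library do not depend on its scaling. The pairs were chosen after the values were seen, so 3 are given as a description only. The ratios of *Cd160* to *Btla* and of *Icos* to *Cd5* were also taken and are not given. The ratio of *Icos* to *Cd28* was 3.93, 3.34 and 2.92 in WT stage 2, 1.35, 1.45 and 1.25 in WT stage 3 and 1.78, 2.27 and 2.01 in *Med23*-deficient cells, 3 groups that did not overlap. *Pdcd1* to *Btla* was 2.30, 2.45 and 1.79 in WT stage 2, 0.948, 2.03 and 0.746 in WT stage 3 and 0.627, 0.652 and 0.725 in *Med23*-deficient cells. In *Med23*-deficient cells *Pdcd1* was thus below *Btla* in every library, and the ratio was under that of every WT library. *Cd5* to *Cd6* was 2.17, 1.65 and 1.79 in WT stage 2, 1.28, 1.22 and 1.21 in WT stage 3 and 1.92, 1.88 and 1.31 in *Med23*-deficient cells, so every WT stage 3 library had the lower ratio.

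**Figure D3:**
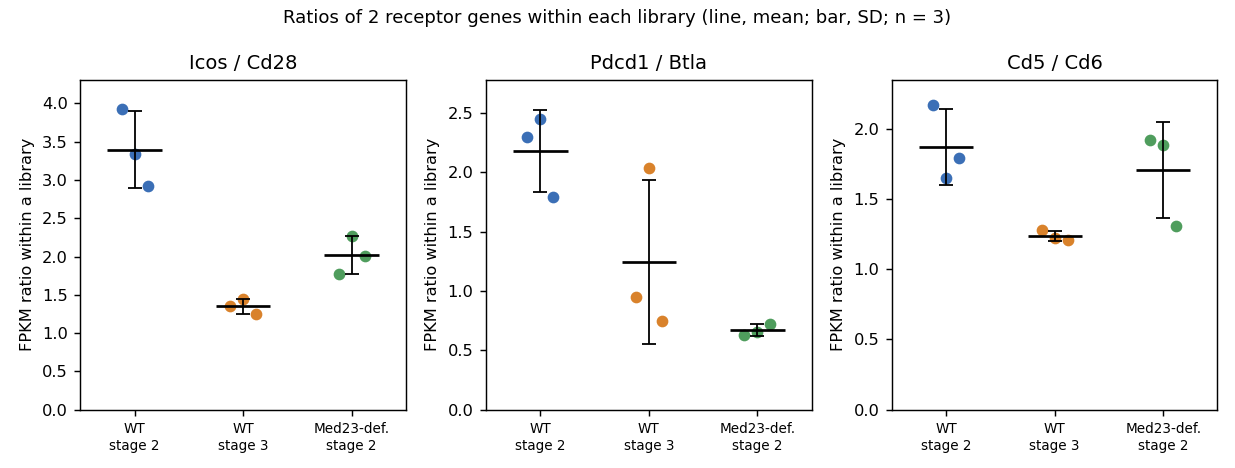
Ratio of the FPKM of a pair of receptor genes within each library (points), with the mean (line) and SD (bar) of 3 libraries per group. The *Icos* to *Cd28* ratio separates the 3 groups, and the *Pdcd1* to *Btla* ratio of *Med23*-deficient cells, 0.627 to 0.725, lies under that of every WT library.

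The other genes of the pathway were given as lists. Of 12 ligands, 10 were tested and none passed an adjusted p of 0.05 in WT stage 3 against stage 2. By the fold and p thresholds *Icosl*, the ligand of ICOS, was higher in WT stage 3 (0.89, 1.42 and 0.91 FPKM against 3.44, 4.08 and 6.61, adjusted p = 0.0844), so ligand and receptor lay in opposite directions between the stages. *Lgals3*, which encodes galectin-3, a ligand of LAG-3, passed the same thresholds with 15.82, 24.99 and 17.64 in WT stage 2 and 3.21, 9.0 and 9.74 in WT stage 3 (adjusted p = 0.196). In *Med23*-deficient cells it was at 4.81, 3.06 and 4.85, a difference of -1.96 from WT stage 2 (adjusted p = 0.0538). The median difference of the ligands was -0.032 between WT stages and 0.17 for *Med23*-deficient against WT stage 2.

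Of 13 other inhibitory and costimulatory receptors, 12 were tested between WT stages, where 1 rose and 2 fell by adjusted p. *Cd244*, the SLAM family receptor 2B4 of NK cells, was at 0, 0 and 0.04 FPKM in WT stage 2, 3.65, 4.88 and 4.51 in WT stage 3 (adjusted p = 0.0122) and 0, 0 and 0.16 in *Med23*-deficient cells. *Pecam1*, an adhesion receptor with inhibitory motifs, was at 8.31, 9.52 and 8.58, then 1.76, 2.80 and 2.42 (adjusted p = 0.0239), and 10.83, 8.81 and 7.59. *Cd200*, whose product engages the inhibitory receptor CD200R, was at 2.51, 1.02 and 1.70 in WT stage 2, listed at 0 in every WT stage 3 library (adjusted p = 0.0497) and at 1.59, 1.80 and 1.47 in *Med23*-deficient cells. For all 3 genes the stage 2 groups overlapped and WT stage 3 lay outside both, and against WT stage 3 *Med23*-deficient cells were called higher in *Pecam1* and *Cd200* and lower in *Cd244*. *Pecam1* was lost in both comparisons without any 1 library (adjusted p 0.0650 to 0.0995 and 0.0612 to 0.107), while *Cd200* between WT stages held only without WT stage 2 replicate 2 (0.0439, otherwise up to 0.180) and against *Med23*-deficient cells was lost when any WT stage 3 library was omitted (0.0771 to 0.0933). *Cd244* between WT stages was lost on omitting WT stage 2 replicate 3 (0.0598) or WT stage 3 replicate 2 (0.0513) or 3 (0.0660), and in the other comparison on omitting *Med23*-deficient replicate 1 (0.0528) or 2 (0.0507) or WT stage 3 replicate 3 (0.0563). By fold and p, *Tigit*, the competitor of CD96 for PVR, was higher in WT stage 3 (5.26, 4.78 and 12.41) and in *Med23*-deficient cells (3.12, 7.28 and 11.29) than in WT stage 2 (0, 0 and 1.19), with adjusted p of 0.0703 and 0.181. *Cd101* also passed by fold and p between WT stages (2.78 to 8.52 by the means, adjusted p = 0.0810), and lower in *Med23*-deficient than in WT stage 3 cells (adjusted p = 0.0614), and *Cd200r1* in *Med23*-deficient against WT stage 2 (0.667 to 2.67, adjusted p = 0.358).

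Of 18 genes that signal from the tails of these receptors, 2 rose between WT stages. *Ubash3a*, a suppressor of TCR signalling, went from 3.22, 2.28 and 3.57 to 14.07, 16.23 and 17.64 FPKM, a rise of 2.09 (SE 0.18, adjusted p = 0.0118). It was at 12.11, 10.48 and 15.03 in *Med23*-deficient cells, higher than WT stage 2 by 1.75 without passing the threshold (adjusted p = 0.0514), with every *Med23*-deficient library above every WT stage 2 library. *Pik3cd*, the PI3 kinase subunit downstream of CD28 and ICOS, rose by 0.58 between WT stages (SE 0.075, adjusted p = 0.0295), from 43.5 to 48.2 up to 66.8 to 70.1, and was at 47.7 to 62.8 in *Med23*-deficient cells. The *Ubash3a* call was lost without WT stage 3 replicate 2 (0.0570) or 3 (0.0690), and that of *Pik3cd* without any 1 library (0.0657 to 0.112). The phosphatase genes *Ptpn6* and *Ptpn11*, whose products bind PD-1 and BTLA, gave values of 135 to 250 and 8.54 to 14.21 over all libraries and passed in no comparison. In the 12 genes that act on the mRNA or protein of these receptors, none passed either rule in any comparison.

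Of 14 transcription factors of T cell activation and differentiation, *Irf4*, induced by TCR signals, fell between WT stages from 7.04, 6.29 and 10.35 to 0.08, 1.01 and 0.52 FPKM (-2.55, SE 0.32, adjusted p = 0.0286, or 0.0662 to 0.112 without any 1 library). It was at 6.68, 3.25 and 3.69 in *Med23*-deficient cells. By fold and p, *Tbx21* (T-bet) was higher in WT stage 3 (29.4 against 73.2 by the means), and *Tox* (19.3 against 8.83), *Nr4a1* (9.18 against 2.61) and *Tox2* (1.19, 0.75 and 3.87 against 0 in every library) were lower, with adjusted p from 0.0742 to 0.181. None of the 14 passed by adjusted p between *Med23*-deficient and WT stage 2 cells. There, *Bcl6* (0.900 to 3.22, adjusted p = 0.219) and *Tox2* (12.11, 6.25 and 2.84 in *Med23*-deficient cells, adjusted p = 0.508) passed by fold and p. The *Tox2* groups overlapped, its difference of 1.43 was 0.99 without *Med23*-deficient replicate 1, and it passed in 7 of 18 alternatives. These 2 genes, *Irf4* and *Nr4a1* were higher by fold and p in *Med23*-deficient than in WT stage 3 cells, with adjusted p from 0.0581 to 0.303.

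**Figure D4:**
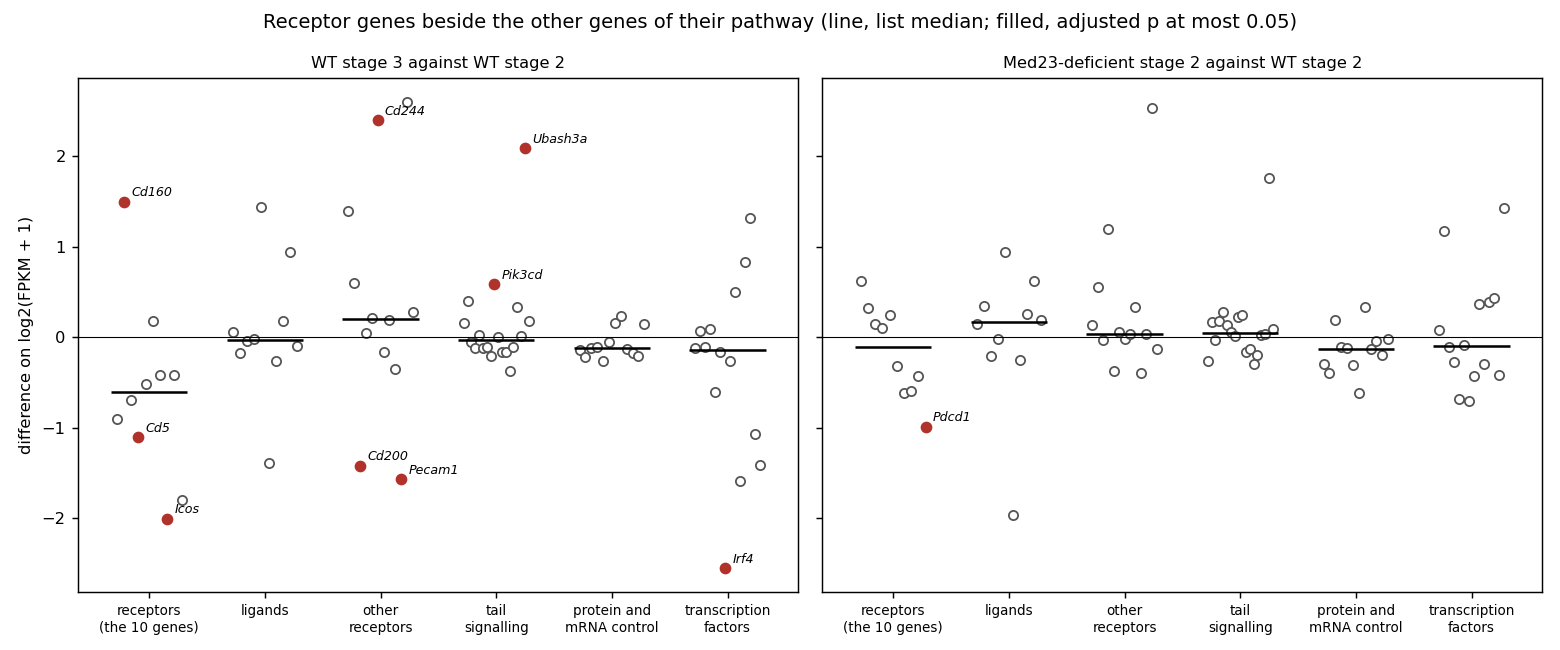
Difference on the log2(FPKM + 1) scale of each tested gene of the receptor set and of the 5 lists of its pathway, with the median of the list (line); filled points have an adjusted p of at most 0.05. Between WT stages the receptor median is -0.61 and the other medians lie between -0.14 and 0.20; in *Med23*-deficient against WT stage 2 cells *Pdcd1* is the 1 filled point.

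For the members whose group means spanned at least 1 on the log2 scale, the genes of most similar pattern over the 9 libraries were sought among 9661 genes whose mean FPKM reached 1, leaving out names made of Gm and a number or ending in Rik. The libraries fall into 3 groups, so a high correlation says mostly that the group means run in parallel. Closest to *Icos* were *Smtn* (Pearson's r = 0.989), *Tesc* (0.987) and *Zbtb16* (0.981), the last encoding PLZF, the defining transcription factor of iNKT cells, at 101.03, 27.5 and 78.1 FPKM in WT stage 2, WT stage 3 and *Med23*-deficient cells. Closest to *Pdcd1* were *Pinx1* (0.985), *Ptms* (0.971) and *Chaf1a* (0.963). *Cd160* ran with *Itga1* (0.974), *Zfp683* (0.972), which encodes the residency factor Hobit, and *Ifngr1* (0.968). *Btla* ran with *Nsg2* (0.993), *Itpr1* (0.985) and *C2cd5* (0.983), and *Nsg2* showed the same order of groups, with 7.56, 1.47 and 17.5 FPKM. *Cd5* ran with *Abca1* (0.980), *Nrp1* (0.978) and *Wdr46* (0.972).

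**Figure D5:**
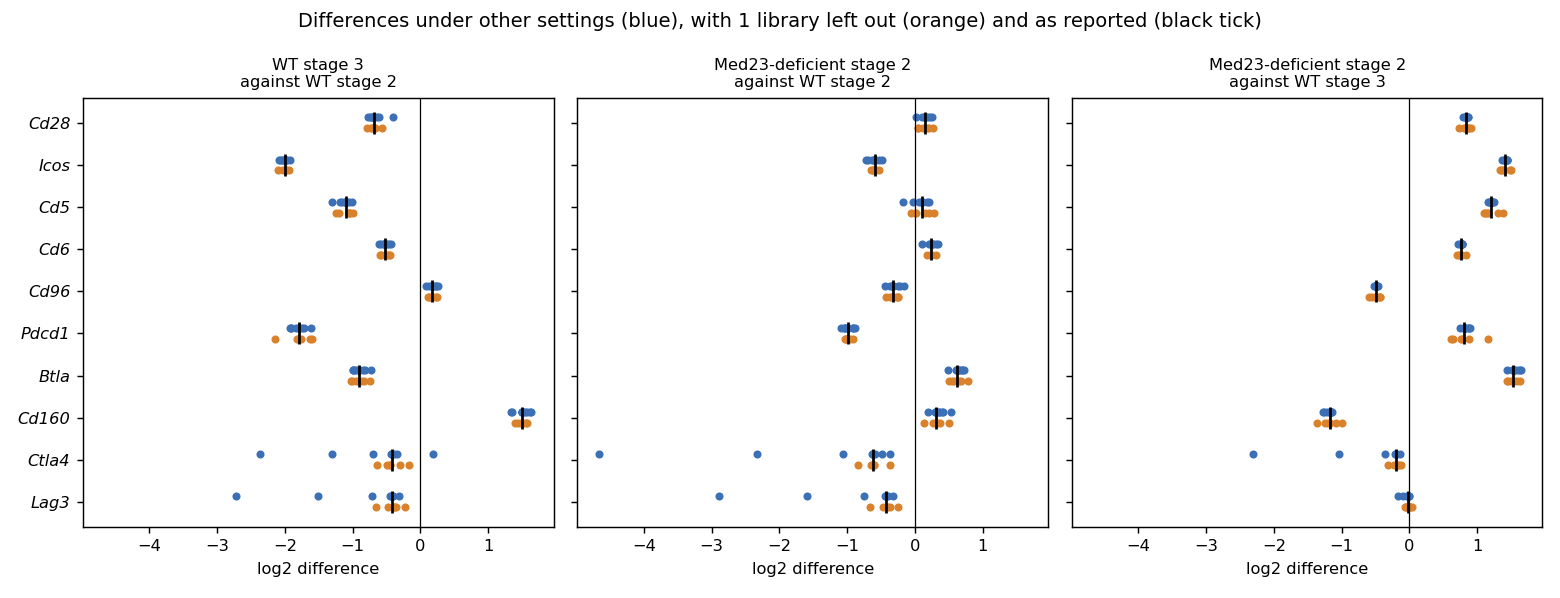
Difference of each receptor gene on the log2 scale as reported (black tick), under other processing settings (blue) and with 1 library left out (orange), in the 3 comparisons. *Icos*, *Pdcd1*, *Btla*, *Cd160*, *Cd28*, *Cd6* and *Cd96* keep their sign at every point. *Ctla4* and *Lag3*, which are close to 0 FPKM, spread most in the comparisons with WT stage 2.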

How the data were processed

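RNA from sorted thymic iNKT cells was sequenced in 9 libraries. As stated in the methods, the authors used a low-input stranded kit for total RNA, Trimmomatic 0.36, HISAT2 with mm10, and StringTie on GENCODE vM12 genes after dropping reads with more than 2 hits; a strand setting is not given in the sources used here. The FPKM values used are those the authors deposited, rounded, per replicate.

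Each comparison was fitted with limma 3.58.1 in R 4.3.3 on log2(FPKM + 1) with a mean-variance trend, over its 6 libraries and all genes above 0 in at least 1 of them, with Benjamini-Hochberg adjustment over all genes. A fold on this scale understates changes of low genes. Fitting was tested on simulated data. Alternatives were other pseudocounts, filters, scalings, models and left-out libraries. Named genes are the members, list genes past a threshold, markers, *Med23* and the 3 genes most correlated with a member. *Gm37039*, *Rpl18-ps1*, the phosphatase genes and the ratios were chosen after their values were seen. The members and lists were chosen with earlier results of these data known. Figures were made with Python 3.11.15 and matplotlib 3.10.9.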

Additional observations from a re-analysis of the deposited data

How the results depend on the processing

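Leaving out 1 library put the number of members past an adjusted p of 0.05 between 1 and 3 for WT stage 3 against stage 2 (3 as reported). It was 0 throughout for *Med23*-deficient against WT stage 2 (1 as reported), and between 1 and 3 for *Med23*-deficient against WT stage 3 (5 as reported). Over all genes, these fits called 22 to 137, 1 to 8 and 72 to 174 genes in the same order. By fold and p the second member count went from 0 to 1, with 471 to 544 of all genes called. Over WT stages the count was 6, of 8 members tested, with a mean FPKM of at least 1, where 496 of 11781 genes passed. It was 7 with all 9 libraries in the fit (600 of 21795 genes). The linear model after Ballgown gave 0 (5 of 20689 genes) and the replicate number as a block gave 1 (19 of 20689 genes). For *Med23*-deficient against WT stage 2 the count was 0 on both TPM scales, with a common upper quartile, with the linear model after Ballgown, with all 9 libraries and with the replicate block. By fold and p it rose from 0 to 2 with a pseudocount of 0.1 or 0.01, where 971 and 974 of all genes passed. It was 1 on the TPM scale (339 of all genes) and 2 on the TPM scale without *Gm23935* (699 of all genes). *Pdcd1* passed in each of these and *Ctla4* in those with 2. For *Med23*-deficient against WT stage 3 the count by adjusted p was 2 on the TPM scale without *Gm23935*, where 241 of all genes passed. It was 0 with the linear model after Ballgown (18 of all genes) and 1 with the replicate block (42 of all genes). The cause of these shifts was not tested.

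The replicate numbers are not tied by the labels to a shared day or mouse, and same-numbered libraries deviated from their group means together with correlations of 0.00429 to 0.272, not all above 0.1, so the block is given only as a count. Every library correlated best with its own number between WT stages and not in the other pairs of groups. Signs turned for *Ctla4* between WT stages (0.19 with the linear model after Ballgown), for *Cd5* in *Med23*-deficient against WT stage 2 (-0.030 on the TPM scale, -0.18 with the linear model after Ballgown, -0.051 without WT stage 2 replicate 2, where leaving out 1 library gave -0.051 to 0.28), for *Gm37039* there (0.19 with the linear model after Ballgown), and for *Lag3* in *Med23*-deficient against WT stage 3 (0.0034 without *Med23*-deficient replicate 1 or 2 and 0.041 without WT stage 3 replicate 3, the only one of its group above 0, with -0.059 to 0.041 over the left-out libraries). The TPM scale moved the median of genes whose mean FPKM reached 1 from -0.05 to -0.13 and from -0.05 to -0.15 in the comparisons with WT stage 2. Over all genes, counts by adjusted p ran from 5 to 600 between WT stages, 0 to 162 for *Med23*-deficient against WT stage 2 and 18 to 383 against WT stage 3, and by fold and p from 583 to 1452, 339 to 974 and 451 to 1221. FPKM carries no counting interval, so no limit set by depth could be given for *Ctla4* and *Lag3*, both near 0.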
